A study of Homo sapiens with 6 samples.

Results

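Heat shock and chaperone genes are described here by the lysine acetylation (Kac) and lysine benzoylation (Kbz) that ChIP-seq placed on their chromatin. The genes were 10 listed members of the HSP70, HSP110, HSP90, HSP40, mitochondrial chaperonin and small heat shock protein families, out of 20033 protein-coding genes in GENCODE 44. For each gene, the peaks that shared at least 1 bp with the gene body plus 5 kb on either side were collected. The listing rule uses no measured value, but the genes were listed with earlier results of these data known. In ChIP-seq an antibody enriches marked histones and the attached DNA is sequenced. Both antibodies were pan antibodies, so the marked histone and residue are not known. The cells were labelled HepG2, a liver cancer line, and carried no other stated change. Control cells were not treated, and SB-treated cells received 10 mM sodium benzoate (SB) for 24 h. Peak lists of 3 libraries were used, control Kac with 70326 peaks, Kac in SB-treated cells (SB Kac) with 63282 peaks and Kbz in SB-treated cells (SB Kbz) with 24308 peaks. Per the labels no peaks were identified in control Kbz, and the input libraries were not analysed here. Each list came from 1 library, so there was no replicate error and no test between conditions, and every statement below compares libraries. The sequencing depth behind the lists is unknown.

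The label was checked against marker genes. Of 12 genes that mark liver cells, 11 had no peak over the transcription start site (TSS) in any list, and ALB, FGA, FGB and FOXA2 had no peak within the gene and its flanks in any list. With the flanks counted, peaks were present at 7 of the 12 genes (control Kac), at 8 (SB Kac) and at 4 (Kbz). Over all protein-coding genes the shares with such a peak were 82.6%, 81.4% and 72.3%. Of 9 genes of kidney development, 5 had the TSS in a control Kac peak, 6 in an SB Kac peak and 4 in a Kbz peak. These 55.6%, 66.7% and 44.4% lay near the 59.1%, 60.4% and 45.8% of all protein-coding genes. Within the gene and its flanks, all 9 had control Kac and SB Kac peaks, and 8 had a Kbz peak. None of 4 blood markers had its TSS in a peak. Of 3 skeletal muscle markers, MYOG had its TSS in Kac peaks of both conditions. The liver markers thus largely lacked peaks over their TSSs in cells labelled HepG2, a line known for making albumin and fibrinogen, and the part of this in the results below was not tested.

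Chaperones bind proteins that are unfolded or still folding and help them reach or keep their shape. HSP70 proteins grip short exposed stretches with the help of J-domain proteins such as DNAJB1 and of exchange factors such as HSPH1, HSP90 proteins act later on clients such as kinases and receptors, HSPD1 and HSPE1 form the folding chamber of mitochondria, and small heat shock proteins such as HSPB1 hold unfolded proteins without ATP. Under heat and other protein-damaging stress the heat shock factors bind heat shock elements in promoters, which are arrays of short inverted units. Some of these genes, such as HSPA8 and HSP90AB1, are active in nearly all growing cells, whereas HSPA1A, HSPA1B and DNAJB1 are known for strong induction.

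The promoters of 6 of the genes are shown because they carry the strongest matches to the heat shock element or belong to the near-identical pair HSPA1A and HSPA1B. Each sequence is the 250 bp before the canonical TSS, read 5′ to 3′ in the direction of transcription. They cover chr6:31815293-31815542 (plus strand) for HSPA1A, chr6:31827488-31827737 (plus strand) for HSPA1B and chr11:123062137-123062386 (minus strand) for HSPA8. The others cover chr13:31161905-31162154 for HSPH1, chr14:102087045-102087294 for HSP90AA1 and chr2:197499841-197500090 for HSPD1, all on the minus strand. All coordinates are in hg38. Capitals mark runs of at least 2 alternating units of NGAAN and NTTCN, from the first to the last fixed letter.
HSPA1A: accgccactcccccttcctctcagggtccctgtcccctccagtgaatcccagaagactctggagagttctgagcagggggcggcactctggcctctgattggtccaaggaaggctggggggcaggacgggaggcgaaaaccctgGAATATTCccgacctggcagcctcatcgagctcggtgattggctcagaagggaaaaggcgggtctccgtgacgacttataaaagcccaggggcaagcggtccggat
HSPA1B: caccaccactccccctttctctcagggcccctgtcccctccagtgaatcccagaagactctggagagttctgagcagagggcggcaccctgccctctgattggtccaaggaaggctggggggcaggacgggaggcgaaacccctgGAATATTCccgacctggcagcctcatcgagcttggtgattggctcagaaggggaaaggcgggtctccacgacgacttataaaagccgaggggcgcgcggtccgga
HSPA8: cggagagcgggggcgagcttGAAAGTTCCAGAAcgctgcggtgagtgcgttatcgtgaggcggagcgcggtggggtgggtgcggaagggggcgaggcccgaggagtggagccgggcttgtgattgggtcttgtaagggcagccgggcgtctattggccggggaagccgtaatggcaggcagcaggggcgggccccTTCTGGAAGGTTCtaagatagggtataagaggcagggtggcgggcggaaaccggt
HSPH1: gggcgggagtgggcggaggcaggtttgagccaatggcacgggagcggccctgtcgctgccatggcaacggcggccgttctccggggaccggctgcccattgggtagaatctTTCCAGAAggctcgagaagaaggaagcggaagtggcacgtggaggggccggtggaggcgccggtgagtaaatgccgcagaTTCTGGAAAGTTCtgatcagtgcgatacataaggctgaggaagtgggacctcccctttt
HSP90AA1: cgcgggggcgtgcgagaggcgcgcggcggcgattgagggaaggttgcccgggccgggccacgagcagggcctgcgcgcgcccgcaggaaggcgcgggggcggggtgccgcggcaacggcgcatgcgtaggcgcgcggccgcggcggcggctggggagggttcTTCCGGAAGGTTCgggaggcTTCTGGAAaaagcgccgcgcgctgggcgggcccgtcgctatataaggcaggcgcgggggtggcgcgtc
HSPD1: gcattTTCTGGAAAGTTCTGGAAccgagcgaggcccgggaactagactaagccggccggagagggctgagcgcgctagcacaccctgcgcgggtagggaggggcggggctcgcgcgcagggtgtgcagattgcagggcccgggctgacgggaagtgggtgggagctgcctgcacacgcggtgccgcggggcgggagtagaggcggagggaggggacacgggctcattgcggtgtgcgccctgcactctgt

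The 3-unit heat shock element, alternating NGAAN and NTTCN with either unit first, was found on either strand in 4 of the 10 promoters, those of HSPA8, HSPH1, HSP90AA1 and HSPD1. Over 34943 promoters of the same length, 0.441% held it. This promoter set is not the same as the 20033 protein-coding genes that serve as background elsewhere. HSPA8 and HSPD1 each held 2 such matches, and those of HSPD1 overlap in the run TTCTGGAAAGTTCTGGAA near the far end of the window. A looser match of 2 units was present in 8 of the 10 promoters, against 11.6% of all, and was absent in HSP90AB1 and HSPE1. In HSPA1A and HSPA1B the looser match was GAATATTC, which starts at positions -106 and -105 relative to the TSS. The TATAAA box occurred in HSPA1A and HSPA1B alone among the 10, against 10.8% of all promoters. CCAAT was present in 5 promoters, against 32.0% of all, and GGGCGG in all 10, against 42.5%. The GC content of the 10 promoters ranged from 56.4% to 78.4%, with a median of 64% against 58% over all promoters. A match describes letters in this window, and no match says nothing of the factor.

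All 10 genes had peaks in all 3 lists. A gene body with its flanks held a control Kac peak for 10 of 10 genes, against 82.6% of protein-coding genes (Wilson 95% interval 82.1 to 83.2, which covers counting error only). An SB Kac peak was present for 10 of 10, against 81.4%, and a Kbz peak for 10 of 10, against 72.3%. The canonical TSS itself lay in a control Kac peak in 9 of 10 genes, where 59.1% of protein-coding genes did (58.4 to 59.8). It lay in an SB Kac peak in 9 of 10, against 60.4% (59.7 to 61.0), and in a Kbz peak in 9 of 10, against 45.8% (45.1 to 46.5). The same 9 genes were covered in all 3 lists, against 44.8% of protein-coding genes, and the exception was HSPA1A. With peaks limited to a −log10 q of at least 5, the TSS count fell to 5 of 10 in control Kac, against 42.4% of protein-coding genes. With that threshold 8 of 10 remained in SB Kac and 6 of 10 in Kbz, against 49.8% and 33.7%. The loss in control Kac was made up of DNAJB1, HSPD1, HSPE1 and HSPB1. HSPD1 and HSPE1 share 1 peak, whose −log10 q of 4.85 in control Kac lay just under the threshold. The HSPB1 peak, at 4.87, did so too. In SB Kac these peaks stood above the threshold, at 7.79 and 9.59, and the DNAJB1 peak was below it in both lists.

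**Figure D1:**
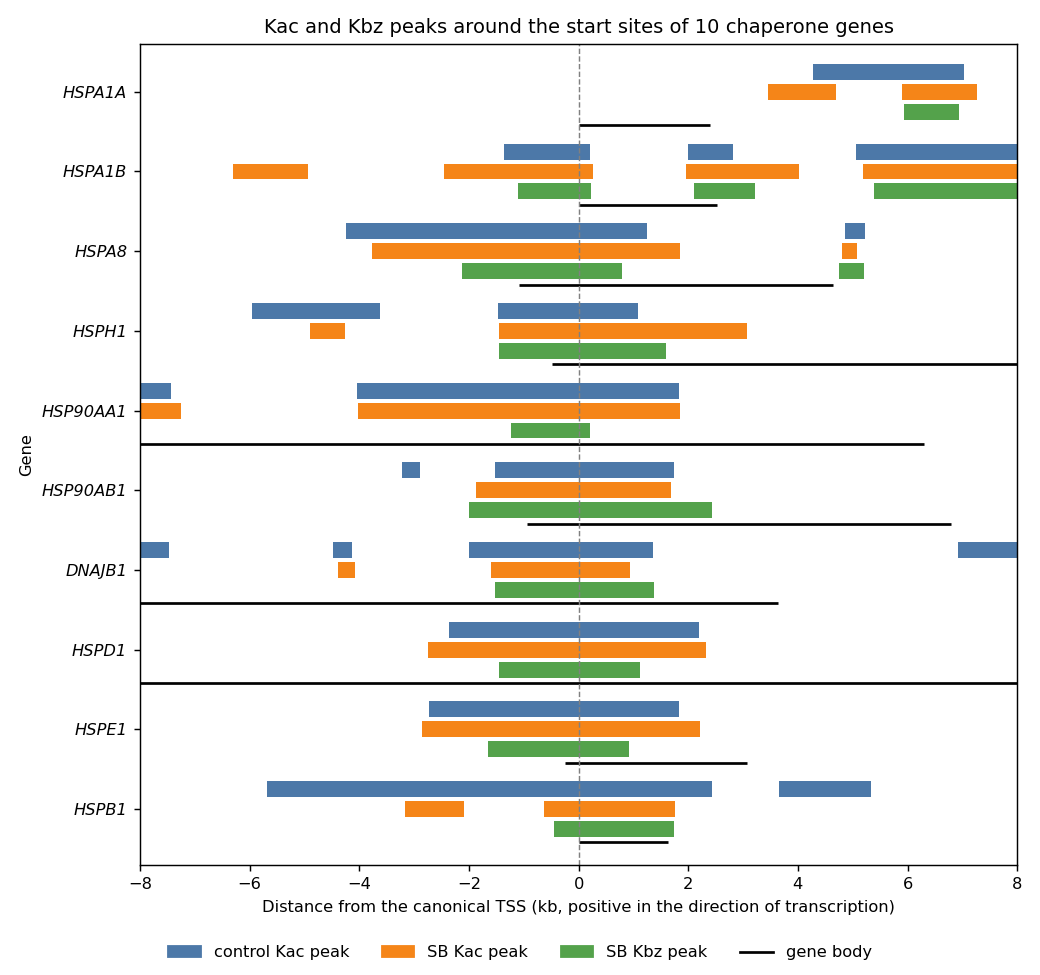
Peaks of the 3 lists from 8 kb before to 8 kb after the canonical TSS of each gene, drawn in the direction of transcription. Each bar is 1 peak that overlaps the gene or its 5 kb flanks, and the black line is the annotated gene body. Bars of all 3 colours cross the dashed TSS line in 9 genes and none crosses it in HSPA1A.

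The windows of the 10 genes held 27 distinct control Kac peaks, 29 SB Kac peaks and 17 Kbz peaks. Each of the 17 Kbz peaks shared bases with an SB Kac peak. In all, 95.5% of the Kbz bases lay inside SB Kac peaks, close to the 95.0% over all protein-coding windows. Of the 271951 bp in the merged windows, control Kac peaks covered 69010 bp (25.4%), SB Kac peaks 66801 bp (24.6%) and Kbz peaks 32756 bp (12.04%). The order of the Kac totals turned with the gene body alone, at 38062 bp in control and 42470 bp in SB Kac, and under other settings given at the end. Over the windows of all protein-coding genes the covered shares were 6.32%, 6.11% and 1.83%, but those windows are longer on average, and long gene bodies lower such a share. The median length of the Kbz peaks in the windows was 1665 bp, against 1905 bp for SB Kac and 2351 bp for control Kac. Besides the 8 Kbz peaks at the canonical TSSs there were 9 others, and 6 of these held a transcript start of a neighbouring gene or a further start of the gene itself. The remaining 3 lay at or just past the 3′ ends of HSPA1B and HSPA8 and inside HSP90AA1. Of the Kac peaks away from the canonical TSSs, 7 of 19 in control and 8 of 21 in SB-treated cells held a transcript start. The share over all Kbz peaks of the list is not given here.

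To compare peaks between lists, the fold of each peak over its background was turned into a percentile among all peaks of its own list, since fold values of separate libraries are not on a common scale. Where percentiles or lengths of all 3 lists are given without names, the order is control Kac, SB Kac, Kbz. At the TSSs of these genes, 8 distinct peak pairs were present, as HSPD1 and HSPE1 share theirs. The percentile was higher in SB Kac than in control Kac in 6 of 8 pairs, close to the 65.1% of 9771 such pairs over all protein-coding genes. The median difference was 5.33 percentile points for the 8 pairs and 2.55 over all pairs, and the interquartile range over all pairs ran from -1.87 to 8.59. HSPB1, HSP90AB1 and the HSPD1 and HSPE1 pair lay above that range, and HSPA1B and DNAJB1 lay below it. Kbz percentiles at the TSS ranged from 43.7 to 99.4, with a median of 68.4 against 70.1 over all genes with a Kbz peak at the TSS. The Kac medians were 84.4 against 83.3 in control and 90.0 against 86.6 in SB-treated cells. Over all genes, peaks at the TSS thus ranked lower in the Kbz list than in the Kac lists. The Kbz peak was longer than the SB Kac peak at 2 of the 8 TSSs, those of HSP90AB1 and DNAJB1, against 6.05% of all such pairs.

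**Figure D2:**
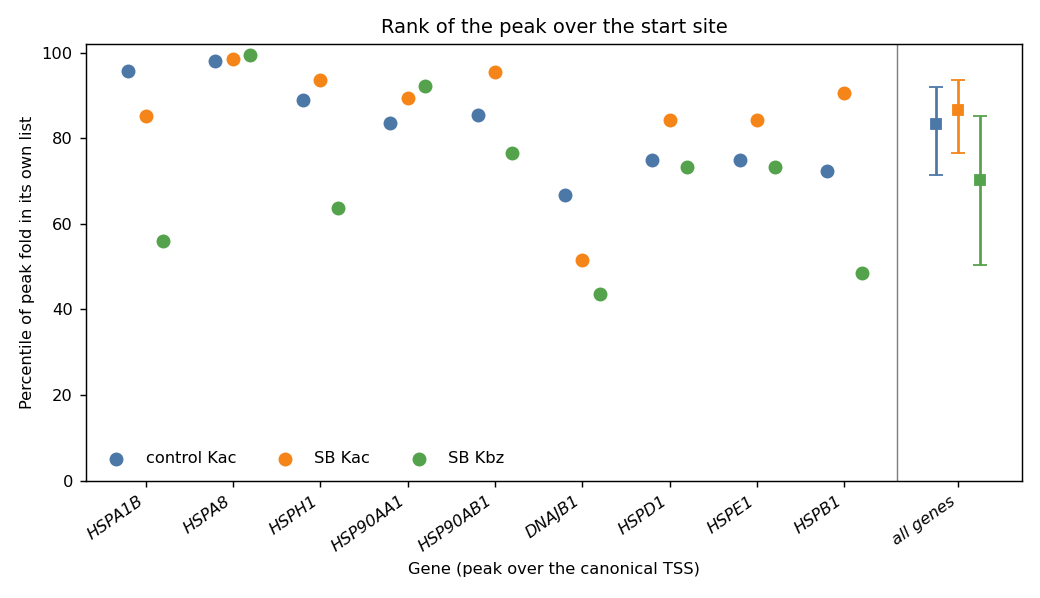
Percentile of the fold of the peak over the canonical TSS inside its own list, for the 9 genes with such a peak, 1 point per library. Squares and bars at the right give the median and interquartile range over all protein-coding genes with a TSS peak. HSPA8 stands at the top in every list (98.1, 98.5 and 99.4), and DNAJB1 is lowest in every list (66.7, 51.5 and 43.7).

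HSPA8, the HSP70 protein that cells make without stress (chr11:123057489-123063230, minus strand), had the highest TSS peaks of the group. Its TSS peak was 5496 bp long in control Kac, 5628 bp in SB Kac and 2920 bp in Kbz. The fold over background was 5.87, 6.96 and 9.09 in these lists, at percentiles 98.1, 98.5 and 99.4. The ranks of the Kac peaks lay within 0.443 percentile points of each other. The Kbz peak reached from 2129 bp upstream to 790 bp downstream of the TSS. A short peak just past the 3′ end, 367, 280 and 451 bp long in control Kac, SB Kac and Kbz, was present in every list as well, and it held no annotated transcript start.

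HSPA1A and HSPA1B, the stress-induced HSP70 genes, lie side by side on chromosome 6 and encode nearly the same protein. Their gene bodies were identical at 96.9% of 2392 aligned bases, and their promoters shown above at 94.4% of 249, with 14 differing bases. In spite of this similarity their start sites differed in all 3 lists. At HSPA1B (chr6:31827738-31830254) the TSS peak was 1568 bp long in control Kac, 2703 bp in SB Kac and 1331 bp in Kbz. Its percentiles were 95.6, 85.2 and 56.0, so the Kac rank was lower in the SB library while the Kac peak was longer. Near the 3′ end of HSPA1B a further peak was present in each list, starting 1993, 1967 and 2104 bp after the TSS. It ranked at percentiles 75.6, 70.8 and 12.8. The Kbz peak there was weak, with a −log10 q of 1.74, short of the authors' stated FDR of 0.01.

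At HSPA1A (chr6:31815543-31817946) no peak of any list overlapped the gene body. The nearest peak upstream of its TSS ended 7404 bp away in control Kac, 7993 bp in SB Kac and 8155 bp in Kbz. Downstream, the nearest peak started 4273 bp after the TSS in control Kac, 3447 bp in SB Kac and 5931 bp in Kbz. The Kbz peak of the HSPA1A window was 1000 bp long, ranked at percentile 20.7, and held the start of the unnamed gene ENSG00000289637. The authors kept uniquely mapped reads of 50 bp, so sequence that occurs more than once in the genome is hidden from the lists. Over 1 kb upstream of the TSS, 100% of the 50-base words of both genes occurred once in the main chromosomes of hg38. Over 1 kb downstream 20.8% did at HSPA1A and 20.7% at HSPA1B. The longest stretch of repeated words was 1666 bp in both, from 208 to 1873 bp after the TSS of HSPA1A and from 207 to 1872 bp at HSPA1B. The TSS peaks of HSPA1B ended 214, 255 and 222 bp after the TSS in control Kac, SB Kac and Kbz, close to where that stretch begins. The 3′ peaks of HSPA1B began shortly after it ends. By this count of exact words, the upstream kilobase of HSPA1A was single-copy like that of HSPA1B, and it had no peak in any list. Most of the first kilobase of both gene bodies was made of repeated words. The count does not cover words that differ by a few bases, so how well reads could be placed at either gene was not tested. If the alternate hg38 sequences of this region are counted too, 0% and 0.128% of the words in the 2 windows occur once. The methods name the Illumina iGenomes copy of UCSC hg38, and whether it holds those sequences is not given in the sources used here.

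**Figure D3:**
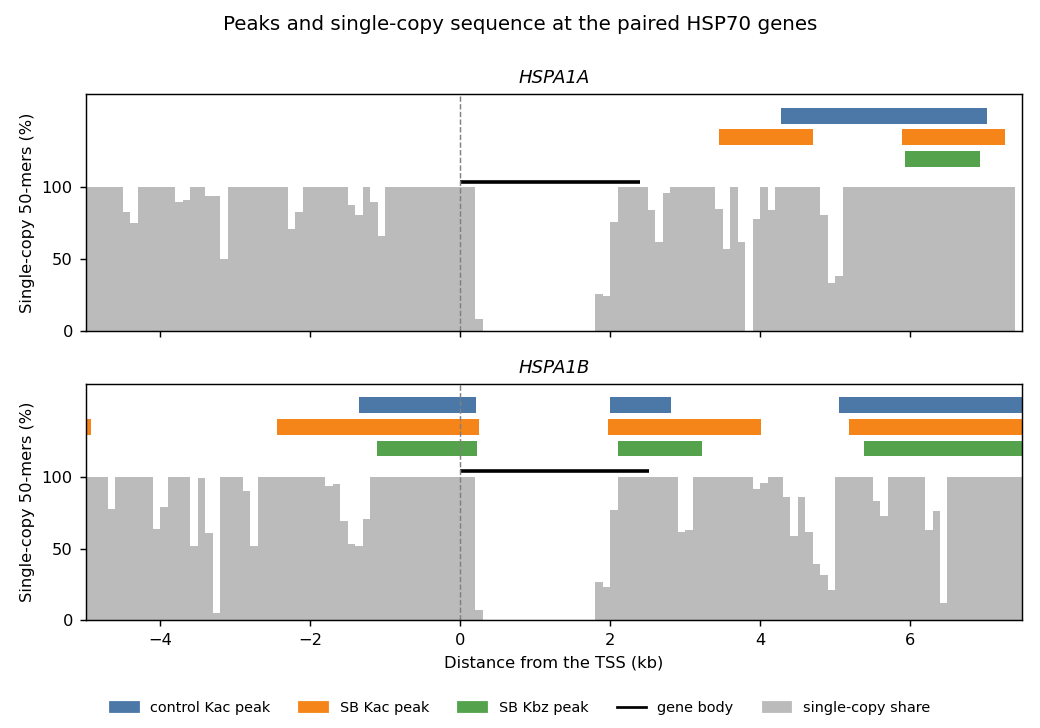
Peaks of the 3 lists around HSPA1A and HSPA1B (coloured bars, drawn above the black gene body) and the share of 50-base words that occur once in the main chromosomes, in bins of 100 bp (grey, in percent), against the distance from the TSS in kb. The upstream kilobase is at 100% in both genes, and peaks cover it in HSPA1B alone.

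HSPH1, an HSP110 protein that helps HSP70 release its nucleotide (chr13:31134973-31162388, minus strand), had TSS peaks of 2548 bp in control Kac, 4526 bp in SB Kac and 3056 bp in Kbz. They ranked at percentiles 88.8, 93.6 and 63.6. The upstream edges nearly coincided in the 3 lists, at 1472, 1459 and 1454 bp before the TSS. The downstream edges differed more, at 1075, 3066 and 1601 bp. A weaker Kac peak further upstream (3615 to 5965 bp from the TSS in control Kac) was present in both conditions, at percentiles 34.8 and 54.2, and no Kbz peak overlapped it.

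The HSP90 genes HSP90AA1 (inducible) and HSP90AB1 (constitutive) both carried all 3 peaks at the TSS. At HSP90AA1 (chr14:102080742-102139699, minus strand) the Kac peaks were almost the same length in control and SB-treated cells, 5879 and 5886 bp. The Kbz peak there was 1438 bp long, 0.244 of the length of the SB Kac peak, yet ranked at percentile 92.1, above the 83.5 and 89.3 of the Kac peaks. It was the narrowest Kbz peak relative to Kac among the 8, for which the median ratio was 0.597 against 0.642 over all genes. A second start of HSP90AA1 lies 52655 bp upstream beside the start of WDR20, and the peaks there ranked at percentiles 88.6, 91.8 and 75.7. A Kbz peak of 757 bp at chr14:102095933-102096689, inside the gene and without an annotated transcript start, ranked at percentile 69.2. The Kac peaks that overlapped it ranked at 29.8 in control and 71.8 in SB-treated cells.

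At HSP90AB1 (chr6:44246166-44253888, plus strand) the order of lengths was the opposite. The TSS peak was 3273 bp long in control Kac, 3555 bp in SB Kac and 4423 bp in Kbz, a Kbz to SB Kac ratio of 1.24. The percentiles were 85.3, 95.5 and 76.5, so the Kac rank was higher by 10.2 points in the SB library. HSP90AB1 was 1 of the 2 genes without even a 2-unit heat shock element in the 250 bp before the TSS. A control Kac peak of 334 bp upstream of it had no counterpart in SB Kac.

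DNAJB1, the J-domain partner of HSP70 (chr19:14514769-14560391, minus strand), had the lowest-ranked TSS peaks of the group in every list. The lengths were 3351 bp in control Kac, 2537 bp in SB Kac and 2897 bp in Kbz, and the Kac percentile was lower by 15.2 points in the SB library. The next peaks upstream shared by all lists (10794 to 12022 bp from the TSS in Kbz), over further starts annotated for DNAJB1, TECR and MIR639, ranked higher than those at the canonical TSS in each list, at 86.9, 88.3 and 58.4. At the outermost annotated start, 41994 bp upstream, Kac peaks of 4684 bp in control and 4414 bp in SB-treated cells were present without Kbz. In the windows of all members together, 4 of 27 control Kac peaks and 4 of 29 SB Kac peaks were found in 1 condition alone. Over the whole control Kac list, 35.3% of the peaks had no SB Kac peak over them. The matching share over the SB Kac list is not given here. Of the member peaks found in 1 condition alone, DNAJB1 held 2 of the 4 in control and 3 of the 4 in SB-treated cells. Their −log10 q was 3.45 and 2.14 in control Kac and 2.58, 1.63 and 1.47 in SB Kac. The authors' stated FDR of 0.01 equals a −log10 q of 2. These 5 peaks ranked between percentiles 14.4 and 57.3, and the DNAJB1 window is among the longest of the group at 55623 bp.

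HSPD1 and HSPE1 encode the large and small subunits of the mitochondrial chaperonin and are transcribed away from each other from starts 539 bp apart (chr2:197486584-197516737, minus strand, and chr2:197500140-197503449, plus strand). In each list a single peak covered both starts, with a length of 4552 bp in control Kac, 5072 bp in SB Kac and 2567 bp in Kbz. Its percentiles were 75.003, 84.2 and 73.3. As the start sites share these peaks, the genes do not count as separate observations. The 3-unit heat shock elements shown above lie in the 250 bp before the canonical TSS of HSPD1, and none was found in the 250 bp before that of HSPE1. An outer annotated start of HSPE1, 239 bp before its canonical one, lies closer to these elements. At the outermost start of HSPD1, beside the start of MOB4, the Kbz peak ranked at percentile 18.1.

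HSPB1, the small heat shock protein also called HSP27 (chr7:76302673-76304295, plus strand), had the largest difference of the group between the Kac libraries in covered bases and in the fold percentile at the TSS, whereas by the −log10 q percentile DNAJB1 differed more (-20.4 against 16.7 points). In control cells a Kac peak of 8128 bp ran from 5686 bp upstream to 2441 bp downstream of the TSS. In SB-treated cells the TSS peak was 2395 bp long, from 628 bp upstream to 1766 bp downstream, and a separate Kac peak of 1072 bp lay further upstream. The Kbz peak was 2206 bp long and nearly matched the SB Kac peak, with edges 456 bp upstream and 1749 bp downstream. The bases under Kac peaks in the HSPB1 window were 9134 in control and 3467 in SB-treated cells, a ratio of 0.380. This ratio lay at percentile 6.78 among the protein-coding genes with a control Kac peak in the window, and those of the other 9 members lay between percentiles 40.4 and 86.2. At the same time the fold percentile of the TSS peak was higher in SB Kac than in control Kac, 90.6 against 72.4, and the Kbz peak ranked at 48.5. The fold is an average over the whole peak, and the control peak was the longest of all in these windows, but the part of length in the rank was not tested.

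A second control Kac peak downstream of HSPB1, at chr7:76306319-76308010, ranked at percentile 97.1 and had neither SB Kac nor Kbz over it. Of 2011 control Kac peaks with at least its fold, 11 (0.547%) had no SB Kac peak over them, whereas 35.3% of all control Kac peaks did not. Single-copy words made up 97.2% of this peak. It holds no annotated transcript start, and the nearest SB Kac peak in that direction began 11489 bp after the TSS of HSPB1.

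The other chaperone genes comprised 68 genes of the same families, their co-chaperones, the cytosolic chaperonin TRiC, the heat shock factors and the factor-binding protein HSBP1. Their canonical TSSs lay in control Kac peaks in 54 genes, in SB Kac peaks in 60 and in Kbz peaks in 50, or 79.4%, 88.2% and 73.5%. All 8 TRiC subunits, which fold actin and tubulin, had the TSS in all 3 lists, and so did both other HSP90 genes, HSP90B1 and TRAP1. The small heat shock proteins had the lowest shares of the classes, with 4, 5 and 1 of 8 (50%, 62.5% and 12.5%), the Kbz peak being at HSPB8. Over all protein-coding genes the shares were 59.1%, 60.4% and 45.8%, so the Kac shares of this class lay near them and the Kbz share was lower. CRYAA, an alpha-crystallin of the eye lens, was the only one of the 68 with no peak in any list.

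The TSS lay in an SB Kac but not in a control Kac peak in 6 of the 68 genes, and in 0 in the opposite case. Over all protein-coding genes these shares were 4.65% and 3.39%. The 6 were HSPA2, DNAJC5, HSPB9, FKBP5, STUB1 and HSF4, and of these HSPA2 and HSF4 also had a Kbz peak at the TSS. STUB1, a ubiquitin ligase that acts with HSP70 and HSP90, had the highest-ranked of these SB Kac peaks, at percentile 97.5. All 6 had a control Kac peak elsewhere in the gene or its flanks. Kac in both conditions without Kbz at the TSS was found in 6 of the 68 genes, HSPA6, HSPA12A, HSPB3, HSPB6, HSPB7 and BAG3, against 10.9% of protein-coding genes. The percentiles in control Kac and SB Kac were 49.9 and 86.2 at HSPA6, a strictly stress-induced HSP70 gene. They were 52.1 and 61.2 at HSPA12A, 14.9 and 62.3 at HSPB3 and 93.9 and 95.2 at HSPB6. At HSPB7 they were 65.7 and 72.5, and at BAG3 68.3 and 71.8. DNAJA4, HSPB3 and FKBP4, 3 of the 68, had Kac peaks and no Kbz peak anywhere in the gene or its flanks. The share of all protein-coding genes with that pattern is not given here, so the count is not set against a background. Among the heat shock factor genes HSF1, the main regulator of the stress response, had the TSS in all 3 lists, at percentiles 72.5, 84.4 and 80.4.

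**Figure D4:**
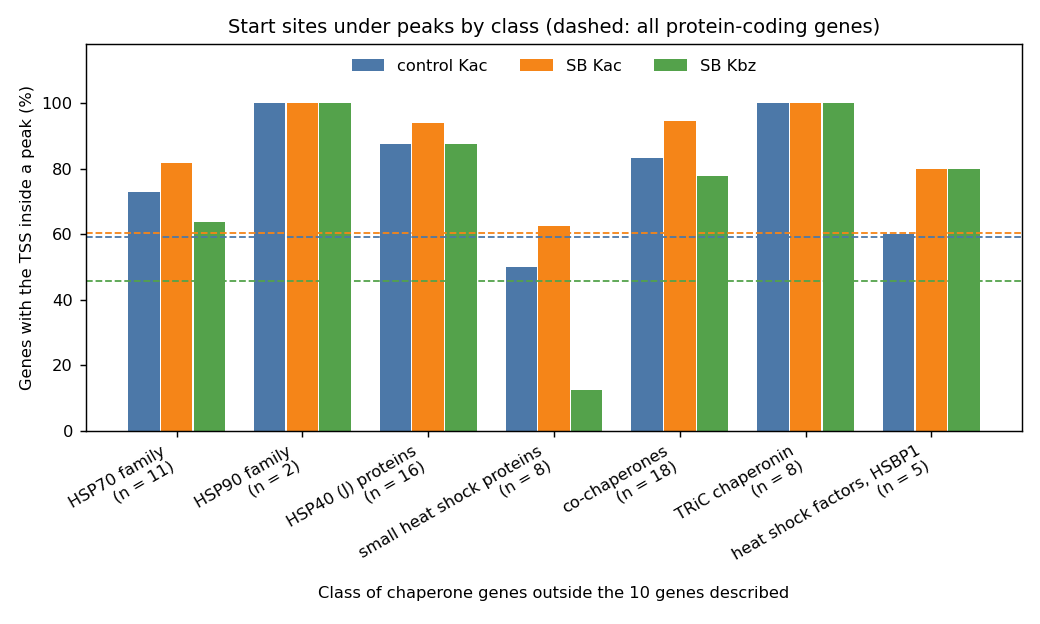
Share of genes with the canonical TSS inside a peak, in percent, for the classes of the 68 other chaperone genes, 1 bar per list with the number of genes under each class. Dashed lines give the shares over all protein-coding genes (59.1%, 60.4% and 45.8%). TRiC and the other HSP90 genes reach 100% in each list, and Kbz at the small heat shock proteins stands at 12.5%.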

How the data were processed

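Published ChIP-seq peak lists of 3 of 6 libraries, 1 library per group, were analysed. Per the methods and labels, the authors digested chromatin with MNase, sequenced single reads of 50 bp, aligned them to the iGenomes hg38 reference with Bowtie2 2.2.6, kept unique reads, removed duplicates with SAMtools 0.1.19 and called broad peaks with MACS2 2.1.1 at a stated FDR of 0.01. The deposited lists reach down to a −log10 q of 1.31. The deposited fold, a ratio to background, was ranked inside its list. Thresholds used the deposited −log10 p and −log10 q values, and the deposited integer score was not used. Depth is unknown.

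Peaks on 24 chromosomes were used, and 3 peaks of control Kac that fell elsewhere were dropped. Genes and canonical TSSs came from GENCODE 44. Promoter sequences came from hg38, and 9 of the 10 equal those in RefSeq's table, the exception being that of HSPH1. Motifs were searched as exact letters on both strands. The 2-unit heat shock element was added after seeing the data. Copies of 50-base words were counted over hg38. The overlap code recovered 1000 of 1000 planted positions, called 0 planted beside peaks, and differed from bedtools 2.31.1 in 0 of 3 lists. Tools were Python 3.11.15, numpy 2.4.6, pandas 2.3.3, scipy 1.17.1, pysam 0.24.0, numba 0.67.0, Biopython 1.88, matplotlib 3.10.9 and samtools 1.23.1.

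All 10 members were named. Of the other chaperone genes, those with no peak in any list, those with Kac and no Kbz and those with the TSS in a single Kac list were named, with further genes as examples chosen after their values were seen (HSPB8, HSF1, HSP90B1 and TRAP1). The values of 1 marker gene are not reported here. The members and lists were chosen with earlier results of these data known.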

Additional observations from a re-analysis of the deposited data

How the results depend on the processing

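Peak lists without replicates or depth cannot separate a difference between conditions from one between libraries. No paired analysis was possible because there was 1 library in every group, and for the same reason leaving out a replicate was not possible. Of 91 alternative values over 20 results, 53 stayed within the stated margin (1.5 times for counts and bases, the counting interval for shares) and 38 did not. For the Kbz share inside SB Kac that margin was too narrow, because neighbouring bases are not independent. There 95.8% against 95.5% already counted as outside it.

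At −log10 q of 5 or more, the TSS count in control Kac was 5 of 10, the distinct peaks were 12 (control Kac), 12 (SB Kac) and 9 (Kbz), the covered bases were 35586, 41756 and 20699, and the Kbz share inside SB Kac was 95.8%. With the 15000 peaks of the highest −log10 p per list, the control Kac TSS count was 5, the distinct Kac peaks were 10 in control and 12 in SB, the Kac bases were 29817 and 41756, and the Kbz share was 86.1%. With 3 kb on either side of the TSS, the distinct peaks were 10, 10 and 9, the bases 30755, 32387 and 21735 and the Kbz share 93.9%. With the gene body alone the bases were 38062, 42470 and 20756 and the Kbz share 94.3%, and with 10 kb flanks that share was 96.0%. Under these 2 thresholds, with 3 kb around the TSS and with the gene body alone, the SB Kac bases exceeded the control Kac bases. This was the opposite of the full lists (69010 and 66801). At −log10 q of 2 or more (67764 and 61671) and with 10 kb flanks (82214 and 77537), the control Kac bases remained the larger. Over all annotated genes, shares with a peak in the window were 52.2%, 50.4% and 38.7% (control Kac, SB Kac, Kbz) and with the TSS in a peak 28.4%, 28.3% and 20.4%. Over protein-coding genes with windows no longer than the longest of the 10, they were 79.1%, 77.9% and 68.1%, and 56.7%, 57.3% and 44.4%. The cause of these shifts was not tested beyond the settings themselves. The counts of members with a peak in the window stayed between 8 and 10 under every alternative.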

Other observations

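The number of members whose outermost annotated start lay in a peak was 9 for both Kac lists and 8 for Kbz. The ratio of CpG dinucleotides observed to those expected from base composition ranged from 0.514 to 1.26 over the 10 promoters of 250 bp, with a median of 0.832 against 0.556 over all promoters. HSPA1A had the lowest value.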
